A study of Mus musculus with 11 samples.

Results

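The 40 genes described here encode proteins that build ribosomes. They were taken by symbol from the 24411 genes of the deposited expression table, all 40 were found, and they are ordered by the step they serve: 5 genes of RNA polymerase I transcription, 15 of the small subunit processome and small subunit maturation, 6 proteins of small nucleolar ribonucleoproteins (snoRNPs), 10 of large subunit assembly and 4 multifunctional nucleolar proteins. They were grouped by gene function, and the list was drawn up with earlier results of these data known. The tumours were spontaneous neuroblastomas of homozygous Th-MYCN mice, a model of MYCN-amplified disease in which the tyrosine hydroxylase promoter drives a MYCN transgene in cells of the sympathetic lineage. Every animal in the study, controls included, carried that transgene. Once a tumour was about 5 mm across, the mouse was dosed once. The vehicle group (n = 3 libraries) was injected intraperitoneally, the CBL0137 group (n = 3) got 40 mg/kg by the intravenous route, the panobinostat group (n = 2 libraries, numbered 1 and 3) got 5 mg/kg by the intraperitoneal route, and the combination group (n = 3) got both compounds. CBL0137 is a curaxin, a DNA-binding compound that traps the histone chaperone FACT on chromatin, and panobinostat inhibits histone deacetylases. Tumours were frozen 16 h later, and total RNA depleted of ribosomal RNA was sequenced. The mice's ages are not given in the sources used here. No panobinostat replicate 2 was among the samples used here.

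Ribosomes are assembled mainly in the nucleolus. RNA polymerase I transcribes the long precursor of the ribosomal RNAs, and the small subunit processome, a very large particle, forms on the precursor while it is being made. The snoRNPs carry guide RNAs and place methyl groups and pseudouridines on the precursor, and other assembly factors then mature the large and the small subunit on separate paths. Genes of this programme are classical targets of the MYC family of transcription factors, which includes MYCN, and a high output of ribosomes is a known property of MYC-driven tumours.

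Promoter sequences are shown first, since MYC family sites are known in promoters of this programme. RefSeq windows on GRCm38.p6, the mm10 assembly, run from 250 bases before to 50 bases after an annotated start and were at hand for 35 of the 40 genes. Some genes have several starts, and a gene was counted if any of its windows held the motif. The E-box CACGTG, the best known site of MYC family dimers and its own reverse complement, was present in 8 of the 35 genes (22.9%), against 8.09% of all 27025 genes with a window and 11.2% of the 11560 genes tested here that have a window. The ETS-type letters CCGGAAG, searched on both strands, were in 12 of 35 genes (34.3%), against 9.93% of all genes and 17.5% of the tested genes. The GC box GGGCGG, also searched on both strands, was in 27 of 35 (77.1%), against 38.2% and 65.5%. No test was made of these shares. Occurrences were allowed to overlap. A match is a run of letters and not a measured binding site. Below are upstream stretches of Rrn3, which holds 2 E-boxes, of Nop2, which holds an E-box and the ETS letters, and of Gnl3 and Nop58, which hold no E-box and had the furthest falls after the combination among all members and among the snoRNP proteins. They were picked with these values known. Each stretch is written 5′ to 3′ on the gene's strand and ends at the base before the RefSeq start, and capitals mark the 3 motifs on either strand.
Rrn3 (chr16:13780449-13780698, + strand): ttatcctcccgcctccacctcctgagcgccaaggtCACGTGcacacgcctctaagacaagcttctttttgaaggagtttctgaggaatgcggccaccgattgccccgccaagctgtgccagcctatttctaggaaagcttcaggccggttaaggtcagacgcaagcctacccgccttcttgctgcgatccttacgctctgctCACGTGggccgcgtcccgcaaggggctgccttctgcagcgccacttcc
Nop2 (chr6:125131763-125131882, + strand): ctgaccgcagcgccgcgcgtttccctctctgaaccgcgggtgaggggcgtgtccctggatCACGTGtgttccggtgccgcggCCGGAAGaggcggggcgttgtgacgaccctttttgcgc
Gnl3 (chr14:31019132-31019251, - strand): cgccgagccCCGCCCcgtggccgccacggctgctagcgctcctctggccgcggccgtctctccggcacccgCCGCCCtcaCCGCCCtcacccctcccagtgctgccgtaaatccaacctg
Nop58 (chr1:59684886-59685005, + strand): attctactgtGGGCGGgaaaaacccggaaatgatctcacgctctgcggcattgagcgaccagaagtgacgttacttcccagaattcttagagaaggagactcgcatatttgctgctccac

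Of the 9 E-boxes in the members' windows, 3 lay upstream of the start and 6 lay past it or across it. The sites past the start are shown in 24-base stretches with the E-box in capitals, since in these 6 genes the hexamer lies within the 50 bases after the RefSeq start.
Pes1 (chr11:3963968-3963991, + strand): taggcagggCACGTGcgggaggaa
Wdr43 (chr17:71616223-71616246, + strand): ccgggcgaaCACGTGgctgccgcg
Tsr1 (chr11:74898095-74898118, + strand): cttggtgcaCACGTGgactgcaga
Ltv1 (chr10:13193095-13193118, - strand): ctgtggaccCACGTGtggagctgc
Utp20 (chr10:88826765-88826788, - strand): ggcactaactaCACGTGaggaaaa
Mybbp1a (chr11:72441353-72441376, + strand): ctgtcttctgagccCACGTGtttg
The E-box was found in 4 of 14 genes of the small subunit step, 2 of 8 of the large subunit step, 1 of 5 of the RNA polymerase I step, 1 of 3 of the multifunctional proteins and 0 of 5 of the snoRNP step. The 8 genes with an E-box had a median log2 change after the combination of -1.08 (range -1.20 to -0.64), and the 27 genes without one had -1.24 (range -1.80 to -0.42). The ranges overlapped.

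Expression is given in TPM, a length-corrected transcript abundance scaled to a total of 1000000 in each library. In vehicle tumours every member was well expressed. Group means ran from 18.8 TPM for Bysl to 2147 TPM for Npm1 with a median of 67.9 TPM, and the lowest value of any member in any of the 11 libraries was 7.4 TPM (Rrp12 in combination replicate 2). All 40 therefore passed the filter of at least 1 TPM in at least 2 libraries, which kept 15497 genes for testing. The coefficient of variation over the 3 vehicle libraries had a median of 6.95% and was highest for Ncl, at 23.8%. Together the members took 5806, 5619 and 5269 TPM in vehicle, 4529, 4158 and 3747 TPM after CBL0137, 3120 and 2746 TPM after panobinostat, and 2265, 1720 and 2558 TPM after the combination. The 4 groups did not overlap in this sum. Npm1 alone made up 33.6 to 40.0% of it.

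**Figure D1:**
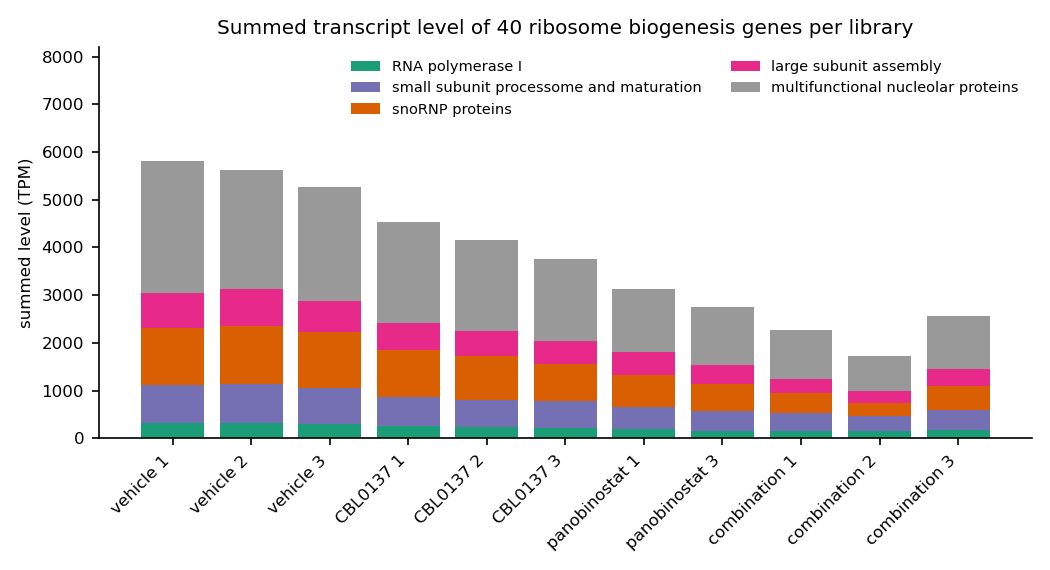
Summed TPM of the 40 genes in each of the 11 libraries, stacked by step. The sum lies between 5269 and 5806 TPM in vehicle and between 1720 and 2558 TPM after the combination, and every library of a group lies apart from those of the other groups.

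Some libraries stood apart in markers of kidney, skeletal muscle, adrenal cortex or B cells, here called transcripts of other tissues. Where these transcripts came from was not tested. Summed kidney markers reached 416 TPM in vehicle replicate 2, with Kap at 302 TPM, and skeletal muscle markers 8409 TPM in panobinostat replicate 3, with Acta1 at 3110 TPM. Adrenal cortex markers reached 5242 TPM in combination replicate 2, with Star at 1362 TPM, and B cell markers 160.3 TPM in CBL0137 replicate 3, with Cd79b at 53.6 TPM. The B cell sum was 1.70 to 3.16 TPM in vehicle. It was higher than that in every treated library, with 66.6 TPM in combination replicate 1. Skeletal muscle markers also reached 534 TPM in CBL0137 replicate 2 and 649 TPM in combination replicate 1, against 10.7 to 60.4 TPM in vehicle. Counts that lead a comparison are therefore also given without the first 4 of these libraries, and without the 3 libraries richest in muscle transcripts (CBL0137 replicate 2, panobinostat replicate 3 and combination replicate 1). Both choices were made after seeing the data, and both leave 1 panobinostat library, which is then assumed to vary like the other groups.

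The comparisons with vehicle ask how this programme differed 16 h after each drug and the pair. Vehicle was given intraperitoneally and CBL0137 intravenously, so drug and route cannot be told apart in the CBL0137 comparison. The combination also held CBL0137, so its comparisons with vehicle and with panobinostat carry the same limit if that dose was intravenous. After the combination all 40 genes fell, after panobinostat 36 fell and after CBL0137 10 fell, at an adjusted p under 0.05 in a limma model of log2(TPM + 1) over all 11 libraries. No member rose, and every one of the 40 log2 changes was below 0 in each of the 3 comparisons. Among all tested genes, falls were called in 30.1% after the combination, 16.9% after panobinostat and 1.13% after CBL0137, and rises in 35.9%, 25.5% and 4.99%. The members' median log2 change was -1.14 after the combination, -0.80 after panobinostat and -0.44 after CBL0137, where all tested genes had medians of 0.08, 0.10 and -0.01. At an unadjusted limma p under 0.05, 40, 38 and 34 members were lower, against 31.6%, 21% and 10.6% of all tested genes.

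Read as levels, the median member stood at 72.9% of its vehicle mean after CBL0137 (range 64.2 to 94.2%), at 56.7% after panobinostat (44.1 to 76.3%) and at 45.3% after the combination (29.2 to 74.1%). Members under 50% of their vehicle mean numbered 0, 5 and 28. The share of all tested genes under 50% was not counted. Every CBL0137 library lay below every vehicle library in 39 of 40 members, the exception being Noc4l, against 19.1% of all tested genes. The same held for panobinostat in 39 of 40, the exception being Noc2l, against 27.8%, and for the combination in 40 of 40, against 32.4%. Permuting 3 against 3 libraries exactly gives no p below 0.1 for any 1 gene, so the calls rest on limma's spread pooled over genes.

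**Figure D2:**
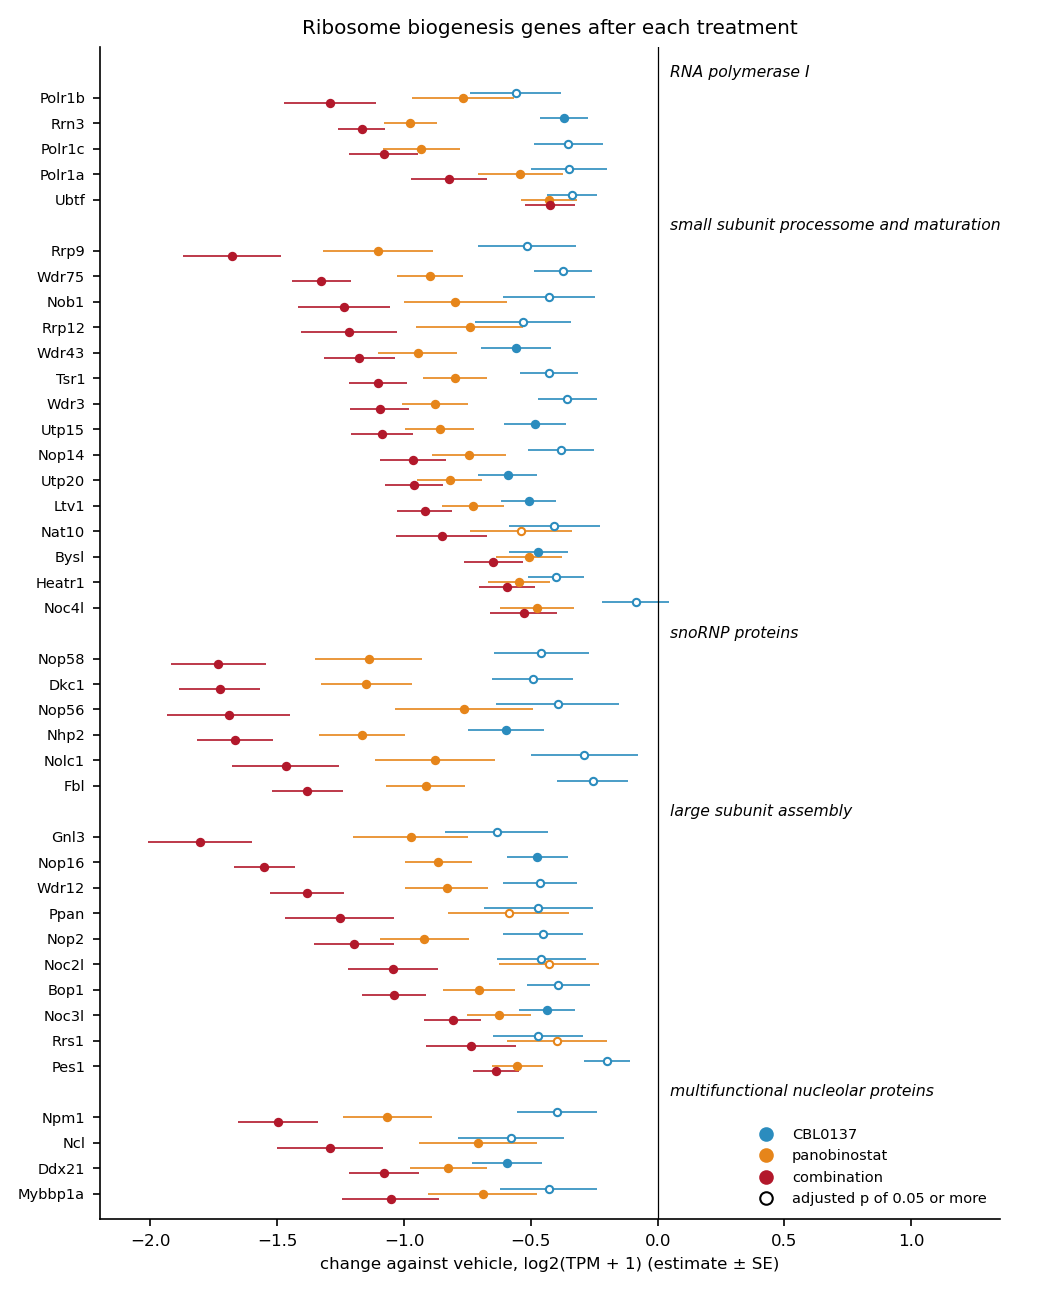
Log2 change of each gene against vehicle (estimate ± SE, log2(TPM + 1) scale) after CBL0137, panobinostat and the combination, grouped by step. Open circles mark an adjusted p of 0.05 or more; all 120 points lie left of 0, and the combination points of Gnl3, Nop58 and Dkc1 reach furthest left.

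**Figure D3:**
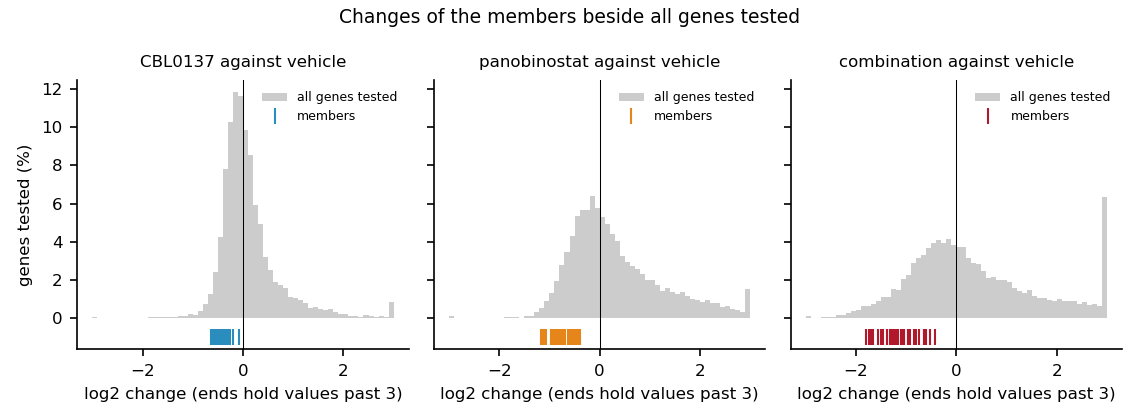
Distribution of log2 changes of the 15497 tested genes (grey, percent of genes per bin of 0.1, with values past 3 in the end bins) and the changes of the 40 members (coloured ticks under the axis). The ticks lie on the negative side in all 3 panels, around medians of -0.44, -0.80 and -1.14.

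The CBL0137 count moved with the libraries and settings more than the sizes did. It was 1 without the 4 libraries with kidney, muscle, adrenal cortex or B cell transcripts, with a median of -0.38, 0 without the 3 muscle-rich libraries, with a median of -0.43, and 1 to 34 under other settings. Leaving out single libraries gave 0, 0 and 1 without vehicle replicates 1, 2 and 3, and 5, 2 and 1 without CBL0137 replicates 1, 2 and 3. It gave 3 without either panobinostat library, and 4, 20 and 10 without combination replicates 1, 2 and 3, since all groups share 1 estimate of the spread. None of the 10 calls held in all 11 of these fits. Over all tested genes, falls after CBL0137 numbered 175 as reported, and 16, 40 and 12 without vehicle replicates 1, 2 and 3. They numbered 99, 61 and 19 without CBL0137 replicates 1, 2 and 3, and 2058 with array weights. The panobinostat count was 27 without the 4 libraries, with a median of -0.66, 14 without the 3 muscle-rich libraries, with a median of -0.69, and 23 without panobinostat replicate 3. The combination count was 40 in each of them, with a median of -0.99 without the 4 libraries and -1.15 without the 3.

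Markers of several cell types moved in the same comparisons. Of 10 markers of proliferating cells, 0 fell after CBL0137, 5 after panobinostat and 10 after the combination (0 of 10 at an unadjusted limma p under 0.05 for CBL0137), and their summed level was 2168 to 2490 TPM in vehicle, 1346 to 2100, 1220 to 1236 and 368 to 831 TPM. Of 12 macrophage and monocyte markers, 8, 12 and 12 rose, with sums of 837 to 1028 TPM in vehicle and 1772 to 3554, 4468 to 5659 and 6759 to 10535 TPM after CBL0137, panobinostat and the combination. Fibroblast and pericyte markers rose in 2, 12 and 12 of 12, from 345 to 574 TPM up to 5272 to 6426 TPM after the combination, and endothelial markers in 3, 10 and 10 of 10, from 47.6 to 78.1 TPM up to 484 to 903 TPM. None of these markers was at 0 in any library. The 12 noradrenergic markers of the tumour cells summed to 1295 to 1456 TPM in vehicle, 1817 to 2266 after CBL0137, 1107 to 1304 after panobinostat and 799 to 1726 after the combination. They moved both ways: 0 fell and 2 rose after CBL0137, 1 fell and 0 rose after panobinostat, and 6 fell and 2 rose after the combination. The part of these shifts in the members' falls was not tested. In bulk tumour RNA, fewer cells of a type and less RNA per cell cannot be told apart.

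Among genes of RNA polymerase I transcription, all 5 fell after panobinostat (median -0.77) and after the combination (median -1.08), and Rrn3 alone of the 5 was called after CBL0137 (median -0.35). All 5 were lower after CBL0137 at an unadjusted limma p under 0.05, against 10.6% of all tested genes. The Rrn3 call after CBL0137 held in 3 of 11 fits that left out 1 library. Rrn3, which encodes the initiation factor TIF-IA that couples the polymerase to growth signals, lies on chromosome 16 from 13780708 to 13814839. Its levels were 97.2, 92.8 and 93.6 TPM in vehicle, 72.9, 79.3 and 67.0 after CBL0137, 48.3 and 46.9 after panobinostat and 41.3, 38.2 and 45.4 after the combination. The 4 groups formed a complete order without overlap. The gene's log2 changes were -0.37 ± 0.09, -0.97 ± 0.10 and -1.17 ± 0.09 (SE; limma adjusted p 0.0467, 0.000458 and 9.16e-06).

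Polr1a and Polr1b encode the 2 large catalytic subunits of the polymerase. Polr1b read 31.8, 32.1 and 27.6 TPM in vehicle, 22.0, 19.9 and 19.2 after CBL0137, 20.8 and 14.7 after panobinostat and 12.8, 8.99 and 14.3 after the combination, and its combination mean was 39.5% of vehicle. Polr1a read 28.8, 23.9 and 21.9 TPM in vehicle, 19.5, 18.1 and 19.99 after CBL0137, 18.6 and 14.9 after panobinostat and 11.4, 15.6 and 13.9 after the combination, with a combination mean at 54.9% of vehicle. In both genes the highest panobinostat library reached the range of the CBL0137 libraries. Polr1c, a subunit shared with RNA polymerase III, read 91.5, 109.8 and 100.2 TPM in vehicle, 87.0, 80.0 and 69.0 after CBL0137, 57.0 and 47.5 after panobinostat and 40.2, 47.6 and 53.7 after the combination; its panobinostat and combination libraries overlapped, and all of them lay below the CBL0137 libraries.

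Ubtf had the smallest change of the 40 members after the combination. It encodes UBF, the architectural factor that keeps ribosomal DNA repeats open, and read 60.0, 55.8 and 53.5 TPM in vehicle, 47.3, 42.6 and 43.6 after CBL0137, 45.4 and 38.3 after panobinostat and 43.6, 39.0 and 42.9 after the combination. All treated libraries lay below vehicle but the 3 treated groups overlapped one another. The log2 changes were -0.34 ± 0.10, -0.43 ± 0.11 and -0.42 ± 0.10 (SE; limma adjusted p 0.0726, 0.0115 and 0.00338), the first of them not called.

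The small subunit group, 15 genes of the processome and of later 40S maturation, fell in 5 members after CBL0137 (median -0.43), in 14 after panobinostat (median -0.80; Nat10 was not called) and in all 15 after the combination (median -1.09). Utp20, a huge scaffold protein of the processome, had the lowest adjusted p of all members after CBL0137. It read 41.6, 41.1 and 37.0 TPM in vehicle, 27.2, 25.1 and 26.1 after CBL0137, 23.2 and 21.2 after panobinostat and 20.3, 17.3 and 22.7 after the combination. Vehicle stood apart from every treated library, while panobinostat and combination libraries overlapped. The log2 changes were -0.59 ± 0.11, -0.82 ± 0.13 and -0.96 ± 0.11 (SE; limma adjusted p 0.0166, 0.00124 and 5.69e-05).

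Rrp9, the U3 snoRNA-binding protein of the processome, had the furthest fall of this group. Its levels were 52.0, 73.8 and 55.5 TPM in vehicle, 43.4, 40.8 and 40.4 after CBL0137, 30.6 and 24.3 after panobinostat and 17.4, 13.9 and 23.9 after the combination. All 4 groups were separate, vehicle replicate 2 stood high, and the combination mean was 30.5% of vehicle (log2 change -1.68 ± 0.19, SE, limma adjusted p 4.66e-05). Wdr75, a component of the subcomplex that joins the nascent precursor first, had 84.8, 92.7 and 85.5 TPM in vehicle, 75.9, 67.2 and 60.1 after CBL0137, 47.9 and 45.3 after panobinostat and 35.9, 29.8 and 37.9 after the combination. Its groups were separate as well, and its log2 changes were -0.37, -0.90 and -1.33, of which those after panobinostat and the combination were called.

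Wdr3, a WD-repeat component of the processome, read 64.8, 61.1 and 61.0 TPM in vehicle, 51.9, 50.2 and 43.5 after CBL0137, 36.4 and 30.7 after panobinostat and 27.4, 26.0 and 32.8 after the combination. Tsr1, a GTPase-like factor of late 40S particles, read 70.9, 67.4 and 63.1 TPM in vehicle, 51.5, 49.6 and 47.8 after CBL0137, 39.5 and 36.8 after panobinostat and 30.4, 26.5 and 35.9 after the combination. In Tsr1 the 4 groups did not overlap, and in Wdr3 the panobinostat and combination libraries did. Ltv1, which is removed from the 40S head late in maturation, read 73.9, 77.4 and 67.9 TPM in vehicle, 55.4, 50.2 and 47.5 after CBL0137, 44.0 and 43.2 after panobinostat and 38.5, 33.5 and 42.9 after the combination, with all groups separate and log2 changes of -0.51, -0.73 and -0.92, all called.

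The 3 shallowest falls of the group after the combination were those of Noc4l, Heatr1 and Bysl. Noc4l, the partner of Nop14, read 33.8, 32.0 and 38.0 TPM in vehicle, 31.8, 29.6 and 36.5 after CBL0137, 27.9 and 21.6 after panobinostat and 24.2, 21.3 and 25.6 after the combination. CBL0137 replicate 3 lay within the vehicle range, which made it the only member whose CBL0137 and vehicle libraries overlapped, and the log2 change after CBL0137 was -0.09 (95% interval -0.38 to 0.21). Bysl, needed for release of the small subunit precursor, read 18.6, 20.2 and 17.4 TPM in vehicle, 13.9, 12.5 and 13.4 after CBL0137, 13.0 and 12.8 after panobinostat and 10.7, 11.3 and 12.9 after the combination; its 3 treated groups overlapped, with log2 changes of -0.47, -0.51 and -0.65. Heatr1, which supports transcription of the precursor as well as its processing, stood at 74.8, 67.4 and 65.3% of vehicle. Nat10, the acetyltransferase of 18S ribosomal RNA, changed by -0.54 after panobinostat (limma adjusted p 0.0523) and fell by 0.85 on the log2 scale after the combination.

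The other 5 genes of the group fell after both panobinostat and the combination. Combination means were 42.0% of vehicle for Nob1, the endonuclease that makes the mature 18S end, 42.0% for Rrp12, an export factor, 44.5% for Wdr43, 46.2% for Utp15 and 50.4% for Nop14. Nop14 is a core processome protein, and Utp15 and Wdr43 belong with Wdr75 and Heatr1 to the subcomplex that binds the nascent precursor. Wdr43 and Utp15 were also called after CBL0137, at log2 changes of -0.56 and -0.48 (limma adjusted p 0.0449 and 0.0465).

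The snoRNP proteins had the lowest median change of the 5 steps after panobinostat and after the combination. All 6 fell after panobinostat (median log2 change -1.03) and after the combination (median -1.68), and all 6 ended below 50% of vehicle after the combination, with a median of 31.9%. Their summed level was 1210, 1224 and 1178 TPM in vehicle, 1002, 921 and 794 TPM after CBL0137, 669 and 564 TPM after panobinostat, and 419.7, 280.1 and 492 TPM after the combination. The groups did not overlap, and combination replicate 2 was lowest. After CBL0137 the step had a median of -0.43, near that of the other steps, and Nhp2 was its only called gene. Whether the step differs from the others was not tested, because the genes of a step are not replicates.

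**Figure D4:**
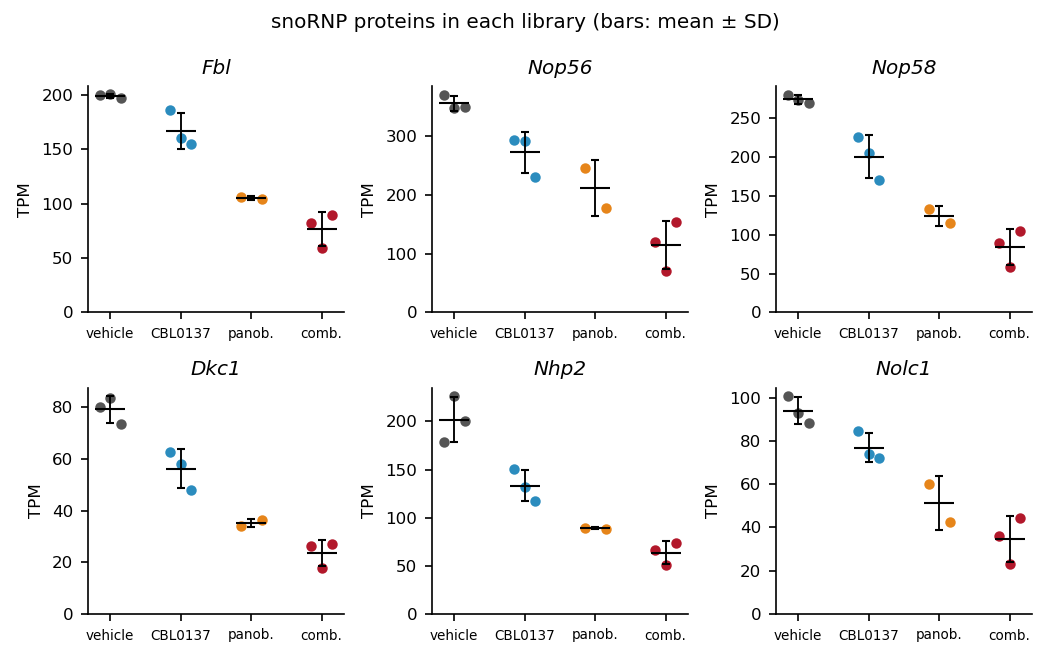
TPM of the 6 snoRNP proteins in each library (points) with group mean ± SD (n = 3, 3, 2 and 3), each axis starting at 0. The combination libraries lie lowest in every panel but that of Nolc1, where combination replicate 3 lies above panobinostat replicate 3.

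Fbl, Nop56 and Nop58 form the box C/D snoRNP, in which fibrillarin (Fbl) is the methyltransferase. Fbl read 199.7, 201 and 197 TPM in vehicle, 186, 160.0 and 155 after CBL0137, 106 and 104 after panobinostat and 82.0, 59.3 and 89.5 after the combination. Its vehicle libraries lay within a few TPM of one another, and all groups were separate. The log2 changes were -0.26 ± 0.14, -0.91 ± 0.16 and -1.38 ± 0.14 (SE; limma adjusted p 0.290, 0.00172 and 2.31e-05).

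Nop58, on chromosome 1 from 59684971 to 59719044, read 280.3, 273 and 269 TPM in vehicle, 226, 205 and 170.3 after CBL0137, 133 and 115 after panobinostat and 89.2, 58.8 and 104 after the combination. The groups again formed 1 order without overlap, and the combination mean was 84.1 ± 23.2 TPM against 274 ± 5.63 TPM in vehicle (SD, n = 3 each). Its log2 change after the combination was -1.73 ± 0.19 (SE, limma adjusted p 3.32e-05). Nop56, its scaffold partner, read 369.8, 347 and 349 TPM in vehicle, 293, 291 and 231 after CBL0137, 245 and 178 after panobinostat and 120.2, 71.0 and 153 after the combination. Panobinostat replicate 1 of Nop56 lay within the CBL0137 range, so these 2 groups overlapped, and the panobinostat call (log2 change -0.76, limma adjusted p 0.0445) held in only 4 of 11 fits that left out 1 library.

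Dkc1, the pseudouridine synthase dyskerin, and Nhp2 are core proteins of the box H/ACA snoRNP and of telomerase. Dkc1 read 80.2, 83.8 and 73.6 TPM in vehicle, 62.6, 58.1 and 48.1 after CBL0137, 34.0 and 36.2 after panobinostat and 26.1, 17.7 and 27.0 after the combination. Nhp2 read 179, 226 and 201 TPM in vehicle, 150.1, 132 and 118 after CBL0137, 89.6 and 88.6 after panobinostat and 66.1, 50.3 and 74.0 after the combination. In both genes the 4 groups were fully separate. Nhp2 had log2 changes of -0.60 ± 0.15, -1.17 ± 0.17 and -1.67 ± 0.15 (SE; limma adjusted p 0.0462, 0.000920 and 1.43e-05), and Dkc1 of -0.49, -1.15 and -1.73, the first not called (limma adjusted p 0.0963). Nolc1, the chaperone Nopp140 that binds both snoRNP classes, read 101, 92.9 and 88.3 TPM in vehicle, 84.5, 73.8 and 72.1 after CBL0137, 60.2 and 42.5 after panobinostat and 36.1, 23.1 and 44.2 after the combination. Its combination mean was 36.7% of vehicle, and combination replicate 3 was above panobinostat replicate 3.

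Large subunit assembly genes fell in 2 of 10 after CBL0137 (Nop16 and Noc3l, median of the 10 genes -0.46), in 7 of 10 after panobinostat (median -0.67) and in 10 of 10 after the combination (median -1.12). Gnl3, on chromosome 14 from 31012433 to 31019152, encodes nucleostemin, a nucleolar GTPase of stem and tumour cells. Its levels were 185, 180.4 and 163 TPM in vehicle, 122, 112 and 105 after CBL0137, 100.4 and 78.9 after panobinostat and 56.9, 33.7 and 63.5 after the combination. Combination libraries lay below all others, and combination replicate 2 was the lowest of them. The mean fell from 176 ± 11.5 to 51.4 ± 15.6 TPM (SD, n = 3 each), 29.2% of vehicle and the lowest share of all 40 genes. Its log2 changes were -0.63 ± 0.20, -0.97 ± 0.23 and -1.80 ± 0.20 (SE; limma adjusted p 0.0937, 0.00730 and 4.11e-05).

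Nop16, a nucleolar protein of the pre-60S particle, read 73.1, 82.0 and 64.2 TPM in vehicle, 57.9, 53.0 and 46.1 after CBL0137, 42.0 and 37.1 after panobinostat and 23.8, 23.5 and 25.4 after the combination. Its 3 combination libraries were close together, and the 4 groups did not overlap. Its log2 changes were -0.47 ± 0.12, -0.86 ± 0.13 and -1.55 ± 0.12 (SE; limma adjusted p 0.0459, 0.00116 and 7.88e-06). Noc3l, a partner of Noc2l in pre-60S particles, read 20.5, 22.4 and 18.8 TPM in vehicle, 15.3, 14.9 and 14.5 after CBL0137, 12.7 and 13.2 after panobinostat and 11.9, 10.4 and 11.6 after the combination, also with 4 separate groups.

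Pes1, Bop1 and Wdr12 form the PeBoW complex, which is needed to process the precursor of 28S ribosomal RNA. Pes1 read 69.5, 72.6 and 61.05 TPM in vehicle, 61.01, 60.3 and 54.7 after CBL0137, 45.9 and 45.5 after panobinostat and 44.2, 41.9 and 43.2 after the combination. Bop1 read 76.4, 84.1 and 72.0 TPM in vehicle, 64.9, 58.2 and 53.7 after CBL0137, 48.6 and 45.6 after panobinostat and 35.2, 32.7 and 44.3 after the combination. Wdr12 read 46.5, 49.7 and 44.0 TPM in vehicle, 35.4, 35.6 and 30.0 after CBL0137, 27.2 and 24.5 after panobinostat and 18.1, 13.8 and 20.8 after the combination. Each gene showed 4 separate groups, with combination means of 63.6, 48.3 and 37.5% of vehicle. The 95% intervals of their log2 changes after the combination were -0.84 to -0.44 for Pes1, -1.32 to -0.76 for Bop1 and -1.71 to -1.06 for Wdr12; the difference between the genes was not tested.

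Nop2, a methyltransferase of 28S ribosomal RNA known as a proliferation antigen, read 66.5, 73.9 and 60.1 TPM in vehicle, 52.6, 47.5 and 45.5 after CBL0137, 37.9 and 31.8 after panobinostat and 29.1, 22.4 and 35.2 after the combination. It fell after panobinostat (log2 change -0.92) and the combination (-1.20), whose libraries overlapped. Noc2l, Ppan and Rrs1 were the 3 genes of the step that panobinostat alone did not bring past the threshold. Noc2l read 95.4, 90.8 and 79.4 TPM in vehicle, 68.9, 61.9 and 61.4 after CBL0137, 79.7 and 53.4 after panobinostat and 38.1, 36.6 and 54.1 after the combination, and its panobinostat replicate 1 lay within the vehicle range. In Ppan, a factor of large subunit precursor processing, the panobinostat libraries also stood far apart, at 55.9 and 36.1 TPM, and in Rrs1, a recruiter of the 5S particle, at 28.4 and 19.4 TPM. Panobinostat replicate 1 was the higher of the pair in 38 of 40 members. The median log2 difference from the vehicle mean over all tested genes was also higher in it, at 0.17 against 0.008.

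The multifunctional nucleolar proteins fell in 1 of 4 after CBL0137 (Ddx21), and in 4 of 4 after panobinostat (median -0.77) and after the combination (median -1.19). Npm1, nucleophosmin, an abundant chaperone of histones and ribosomal particles, lies on chromosome 11 from 33152287 to 33163206. It read 2293, 2120.2 and 2029 TPM in vehicle, 1813, 1663 and 1435 after CBL0137, 1047 and 1001 after panobinostat and 827, 595 and 889.7 after the combination. The groups were separate, with a combination mean of 770.4 ± 155 TPM against 2147 ± 134 TPM in vehicle (SD, n = 3 each). Its log2 changes were -0.40 ± 0.16, -1.07 ± 0.18 and -1.50 ± 0.16 (SE; limma adjusted p 0.158, 0.00148 and 2.78e-05).

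Ncl, nucleolin, a histone chaperone and RNA-binding protein of the nucleolus, read 201, 137 and 135 TPM in vehicle, 112, 95.9 and 102 after CBL0137, 106 and 84.1 after panobinostat and 67.8, 46.1 and 78.4 after the combination. Vehicle replicate 1 was far above the other vehicle libraries, yet all treated libraries lay below vehicle. Ddx21, a helicase that links transcription by RNA polymerases I and II, read 118, 107 and 106 TPM in vehicle, 79.4, 69.8 and 69.3 after CBL0137, 64.9 and 58.8 after panobinostat and 55.6, 41.0 and 60.4 after the combination, and its log2 changes of -0.59, -0.83 and -1.08 were all called. Mybbp1a, a regulator of ribosomal RNA synthesis, read 146, 132 and 118 TPM in vehicle, 111, 88.4 and 93.5 after CBL0137, 91.1 and 72.2 after panobinostat and 67.1, 46.0 and 80.3 after the combination, with panobinostat replicate 1 inside the CBL0137 range.

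The comparison of the combination with CBL0137 asks what panobinostat added. Of the 40 genes, 35 were lower after both drugs than after CBL0137 alone, and 0 were higher, where all tested genes were called lower in 23.7% and higher in 33.2%. All 40 changes were below 0, with a median of -0.70 against 0.12 for all tested genes. The furthest changes were those of the snoRNP proteins Nop56 (-1.30), Nop58 (-1.27) and Dkc1 (-1.23). The 5 members not called were Ubtf (-0.09, 95% interval -0.31 to 0.13), Heatr1, Nat10, Bysl and Rrs1. In 37 of 40 members every combination library lay below every CBL0137 library, against 28.6% of all tested genes, and the exceptions were Bysl, Rrs1 and Ubtf. The count of 35 was 28 without the 4 libraries with transcripts of other tissues and 26 without the 3 muscle-rich ones.

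The comparison of the combination with panobinostat asks what CBL0137 added, and here few calls were made. Drug and route cannot be told apart in it if the CBL0137 of the pair was intravenous. Nop16 (log2 change -0.69 ± 0.13, SE, limma adjusted p 0.0172) and Gnl3 (-0.83 ± 0.23, adjusted p 0.0465) were lower, and 0 members were higher, with 4.3% of all tested genes called lower and 6.24% higher. The direction was shared more widely than the calls. Of the 40 changes, 39 were below 0, with Ubtf at 0.00288 the exception. The median was -0.34, and 19 members were lower at an unadjusted limma p under 0.05, against 16.4% of all tested genes, including all 6 snoRNP proteins. Combination libraries lay below both panobinostat libraries in 19 of 40, against 21.5%. The count of 2 was 0 without panobinostat replicate 1, panobinostat replicate 3 or combination replicate 1, 16 without combination replicate 3, 6 without CBL0137 replicate 3 and 1 without any 1 of the other libraries. It was 3 without the 4 libraries and 0 without the 3 muscle-rich ones. Without combination replicate 2 the median was -0.21.

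CBL0137 and panobinostat were also set against each other. After CBL0137, 10 members were higher than after panobinostat, against 6.81% of all tested genes, and 0 were lower, against 12.1% (2 differences were below 0, those of Noc2l and Rrs1, neither with an unadjusted limma p under 0.05). The 10 higher were Polr1c, Rrn3, Wdr3, Wdr75, Fbl, Nop58, Dkc1, Nhp2, Pes1 and Npm1, with log2 differences from 0.35 for Pes1 to 0.68 for Nop58. The median over the 40 was 0.37. All panobinostat libraries lay below all CBL0137 libraries in 29 of 40, against 22.2% of all tested genes. The doses and routes were those chosen for each drug, so the contrast compares these 2 treatments and not equal doses. The count was 1 without CBL0137 replicate 1 or 2, 2 and 0 without panobinostat replicates 1 and 3, and 16 without combination replicate 2. It was 8 without the 4 libraries with transcripts of other tissues and 0 without the 3 muscle-rich ones, where no tested gene was called in either direction.

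Group means followed the order vehicle, CBL0137, panobinostat, combination in 38 of 40 members, against 21.2% of all tested genes. The exceptions were Noc2l and Rrs1, in which panobinostat was above CBL0137. In 16 members, against 4.19% of all tested genes, this order held with no overlap between any neighbouring groups. The 16 were Rrn3, Wdr75, Rrp9, Ltv1, Tsr1, Fbl, Nop58, Dkc1, Nhp2, Bop1, Pes1, Wdr12, Nop16, Noc3l, Gnl3 and Npm1.

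The interaction term is the combination's change less the 2 single-drug changes added together, and it asks whether the falls added up on the log2 scale. It was called in 0 of 40 members and in 0% of all tested genes in either direction, and it had an unadjusted limma p under 0.05 in 10.5% of all tested genes and in 2 members, Utp20 (0.45, 95% interval 0.07 to 0.83) and Ubtf (0.34, 0.01 to 0.67). The median over the members was 0.07, with a range from -0.53 for Nop56 to 0.45 for Utp20. For Npm1 the estimate was -0.04 with a 95% interval of -0.56 to 0.49, and for Gnl3 -0.20 with -0.88 to 0.48. Both intervals include departures as large as the gene's own change after CBL0137 alone, in either direction for Npm1 and only below 0 for Gnl3.

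The change with panobinostat was compared in the absence and in the presence of CBL0137 over the 40 genes, 2 contrasts that use no library in common. Pearson's r was 0.78 and Spearman's rho 0.76 (n = 40 genes, which are not independent and come from the same fit). The change with CBL0137 in the absence and in the presence of panobinostat gave r = 0.36 and rho = 0.35. These are descriptions across genes of 1 set of tumours.

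**Figure D5:**
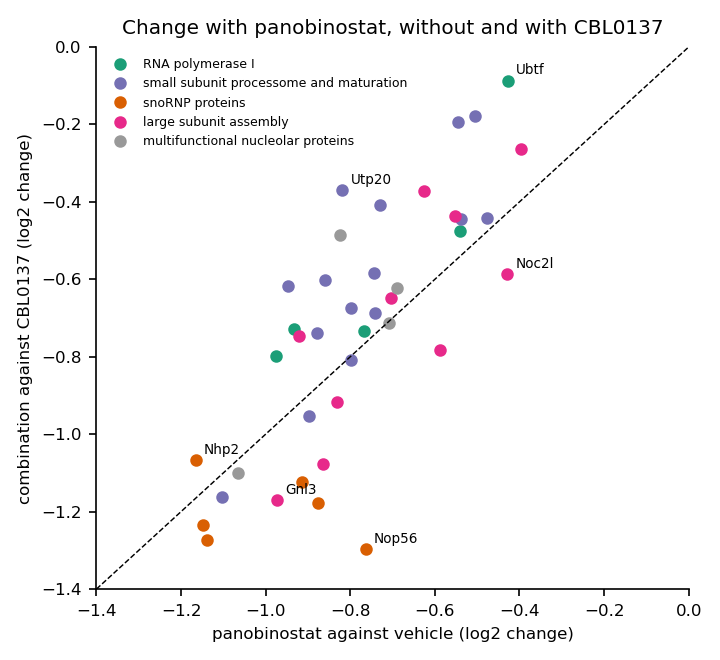
Log2 change of the 40 genes from vehicle to panobinostat (horizontal) and from CBL0137 to the combination (vertical), coloured by step, with the line of equal change dashed. Ubtf lies near the upper end of both axes and the snoRNP proteins at the lower end of the vertical axis (r = 0.78 over 40 genes).

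The members' shifts were shared by whole libraries. Taking in each library the median over members of the log2 difference from the vehicle mean, vehicle stood at 0.04, 0.04 and -0.10, CBL0137 at -0.34, -0.44 and -0.52, panobinostat at -0.69 and -0.90, and the combination at -1.16, -1.45 and -0.89. Combination replicate 2 was the lowest of its group in 37 of 40 members and combination replicate 3 the highest in 35. Within CBL0137, replicate 1 was the highest in 34. These orders were not counted over all tested genes. Library medians over all tested genes were -0.06, -0.006 and 0.02 after CBL0137 and 0.17 and 0.008 after panobinostat. They were 0.008, 0.13 and 0.07 after the combination, and 0.09, -0.05 and -0.04 in vehicle. The same combination replicate 2 held the adrenal cortex transcripts and the lowest sum of proliferation markers, 368 TPM; without it all 40 members still fell after the combination, with a median of -1.02.

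Beyond the 40 members, 134 other genes of ribosome production were examined, and all were expressed highly enough to test. They fell in 15 after CBL0137 (median -0.30), 99 after panobinostat (median -0.59) and 112 after the combination (median -0.85), and 0, 0 and 2 rose. Over all tested genes, falls were called in 1.13%, 16.9% and 30.1% and rises in 4.99%, 25.5% and 35.9%. At an unadjusted limma p under 0.05, 63, 111 and 116 of them differed in either direction, against 24.5%, 51.2% and 69.1% of all tested genes. Other components of RNA polymerase I and its factors fell in 1, 4 and 5 of 10, small subunit genes in 10, 36 and 35 of 43, snoRNP and snoRNP assembly genes in 0, 7 and 9 of 11 (3 at an unadjusted limma p under 0.05 after CBL0137), large subunit genes in 3, 31 and 42 of 46 and nucleases of the precursor in 1, 21 and 21 of 24.

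Twistnb, a subunit of the polymerase I stalk, read 63.2, 59.9 and 61.2 TPM in vehicle, 42.9, 43.9 and 41.1 after CBL0137, 33.6 and 34.9 after panobinostat and 31.7, 28.4 and 34.5 after the combination, and its treated libraries all lay below vehicle. Rcl1, a processome factor that acts at the cleavage freeing the 18S precursor, read 49.96, 52.0 and 46.7 TPM in vehicle, 35.9, 35.7 and 30.9 after CBL0137, 29.6 and 28.1 after panobinostat and 20.4, 18.7 and 21.0 after the combination, with 4 separate groups. Pop1, the largest protein of RNase MRP and RNase P, read 13.4, 14.3 and 13.8 TPM in vehicle, 7.56, 8.09 and 6.60 after CBL0137, 7.89 and 7.30 after panobinostat and 4.11, 3.11 and 5.68 after the combination, with CBL0137 and panobinostat libraries that overlapped below the vehicle range. Log2 changes after the combination were -0.94, -1.26 and -1.51.

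Ruvbl1, an ATPase that helps assemble snoRNPs, read 101, 117 and 102 TPM in vehicle, 111, 106 and 93.6 after CBL0137, 46.4 and 46.4 after panobinostat and 40.1, 38.9 and 50.7 after the combination. Its CBL0137 and vehicle libraries overlapped, while all panobinostat and combination libraries lay far below both, with log2 changes of -0.04, -1.18 and -1.29. Nop10, a core H/ACA protein, read 288, 326 and 301 TPM in vehicle, 329.6, 306 and 261 after CBL0137, 176 and 199.6 after panobinostat and 153, 152 and 162 after the combination, again with overlapping vehicle and CBL0137 libraries. The 2 genes that rose after the combination were Ddx24, a helicase of large subunit assembly (78.7, 81.4 and 75.6 TPM in vehicle, 90.0, 78.7 and 106 after CBL0137, 75.6 and 62.6 after panobinostat and 108, 127 and 101 after the combination; log2 change 0.50 ± 0.13, SE, limma adjusted p 0.00613), and Riok3, a kinase tied to the small subunit (50.4, 45.1 and 46.5 TPM in vehicle, 51.9, 63.0 and 53.7 after CBL0137, 53.4 and 51.6 after panobinostat and 63.6, 67.7 and 62.1 after the combination; 0.44 ± 0.10, adjusted p 0.00234).

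In the GENCODE M21 annotation on GRCm38, exons of 17 members overlap a gene on the opposite strand, among them Gnl3 with Pbrm1, Dkc1 with Mpp1, Nhp2 with Rmnd5b, Nop56 with Idh3b and Wdr12 with Carf, and 5 members overlap same-strand genes, among them Snord19 and Snord69 in Gnl3, Snord57 in Nop56 and Snora75 in Ncl. The libraries were made with a stranded kit, but whether the authors' quantification used the strand is not given in the sources used here. The members lie on 18 chromosomes.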

How the data were processed

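Total RNA of flash-frozen tumours was sequenced after ribosomal RNA depletion with a stranded kit, 1 library per sample. Per the submitters' processing notes, STAR, SAMtools and RSEM were used with mm10; versions, settings and annotation release are not given in the sources used here. The authors deposited TPM values for 24411 genes, and each library sums to 1000000. TPM keep no read counts, so depth is unknown and no counting interval is given. Of the symbols, 27 had turned into dates, none of them a member's.

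A gene was tested if 2 or more libraries reached 1 TPM (15497 genes), as log2(TPM + 1), so the fold changes of low genes are understated. A single limma 3.58.1 model in R 4.3.3 fitted 4 group means over 11 libraries (eBayes with trend). Contrasts were 2-sided, with Benjamini-Hochberg adjustment over all tested genes and a threshold of 0.05. The method was tested on simulated data. The members, the wider lists and the markers were chosen with earlier results of these data known. All 40 members may be named; values in every library are given for those with the lowest adjusted p of each step, for the furthest and shallowest falls and for members of 1 complex, the last 2 kinds chosen after their values were seen. The wider list gives up to 2 genes a list and direction with the lowest adjusted p.

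Alternatives changed the pseudocount (0.1 or 5), the filter (none or 5 TPM), the scaling (TMM factors, quantile normalization, or rescaling without small structural RNA and histone genes) and the model (replicate block, array weights, eBayes with no trend, or a fit of the compared groups alone). Others were leaving out each library in turn and, added after seeing the data, leaving out 4 libraries with transcripts of other tissues or 3 rich in muscle transcripts. The labels describe 3 mice per group, but the panobinostat group had 2 samples here. The p-values measure the spread between the samples used. Gene coordinates are from GENCODE M21 on GRCm38 (mm10), promoters from RefSeq on GRCm38.p6.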

Additional observations from a re-analysis of the deposited data

How the results depend on the processing

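After the combination, all 40 members fell under every alternative run, including each fit without 1 library. The combination against CBL0137 kept its direction and a count within 1.5 times of 35 in all of them. For CBL0137 against vehicle the count of 10 became 3 with a pseudocount of 5, 4 without a filter, 1 with TMM factors, 1 with quantile normalization, 2 after rescaling without small structural RNA and histone genes, 4 without a trend, 34 with array weights (median -0.33), 20 with only the groups compared, 1 without the 4 libraries with transcripts of other tissues and 0 without the 3 rich in muscle transcripts. It ran from 0 to 20 with 1 library left out. After panobinostat the count of 36 ran from 23 to 40 with 1 library left out and was 14 without the 3 muscle-rich libraries, and the median of -0.80 was -0.94 with TMM factors and -0.66 without the 4 libraries. For the combination against panobinostat the count of 2 became 1 without a filter, 4 with a filter of 5 TPM, 12 with quantile normalization, 6 after rescaling, 1 without a trend, 5 with array weights, 0 with only the groups compared and 0 without the 3 muscle-rich libraries, and 0 to 16 with 1 library left out. For CBL0137 against panobinostat the 10 higher members became 3 with quantile normalization, 5 after rescaling, 17 with array weights, 0 with only the groups compared and 0 without the 3 muscle-rich libraries, and 0 to 16 with 1 library left out; the median of 0.37 was 0.52 with TMM factors. The interaction median of 0.07 turned to -0.083 with quantile normalization, -0.067 after rescaling and -0.053 without the 3 muscle-rich libraries, and ran from -0.054 to 0.21 with 1 library left out. The causes of these shifts were not tested. Over all tested genes, falls after CBL0137 numbered 175 as reported, 117 with a pseudocount of 5 and 120 with TMM factors. They numbered 119 with quantile normalization, 144 after rescaling, 82 without a trend and 2058 with array weights. For the combination against panobinostat they numbered 667 as reported, 1825 with quantile normalization, 1322 after rescaling and 896 with array weights.

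Quantile normalization moved the median of all tested genes from 0.08 to -0.26 for the combination and from 0.10 to -0.18 for panobinostat; relative to it the members' medians were -0.93 and -0.60, against -1.22 and -0.90 as reported. Of the 36 and 40 calls after panobinostat and the combination, 23 and 40 held in every alternative except the 2 added after seeing the data. With the replicate number as a block, the counts fallen were 2 after CBL0137, 35 after panobinostat, 40 after the combination and 1 for the combination against panobinostat, and 3 members were higher for CBL0137 against panobinostat. Over all tested genes, the same counts were 38, 2328, 4476 and 48 fallen and 414 higher. Genes higher for CBL0137 against panobinostat numbered 1056 as reported, 1339 with quantile normalization, 802 after rescaling and 1703 with array weights. Of 15 same-numbered pairs of libraries, 2 had deviations from their group means that correlated above 0.1 (range -0.26 to 0.19), so the numbers were not taken to pair samples. Low values do not exclude a pairing, since the 2 panobinostat libraries deviate as mirror images by construction. Depth is unknown, so limits from counting cannot be given.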
